A study of Mus musculus with 12 samples.

Results

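The genes that mark endothelium and endocardium, the cell layers lining vessels and the heart tube, were followed in mouse hearts lacking the cardiac transcription factors Nkx2-5, Tbx5 or both. The set held 35 genes picked by name for their known endothelial or endocardial expression, from Pecam1 and Cdh5 to S1pr1. All 35 were measured, among 19938 genes in all, and each was read by 1 probe set that carried its symbol alone. The arrays were made from hearts dissected at E8.75, a stage in days of embryonic life. There were 3 wild-type (WT) arrays, 3 from the Nkx2-5 knockout (KO), 3 from the Tbx5 knockout and 3 from the double knockout, which lacks both factors. The labels name no strain and no detail of either deleted allele, and are silent on whether an array held 1 heart or a pool. The titles call the 3 arrays of a genotype biological replicates, and p-values measure the spread between those samples.

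Endothelial cells are specified in early mesoderm by ETS, SCL/Tal1, LMO and GATA factors, and the endocardium forms as the inner endothelial layer of the heart tube, separated from the muscle layer by cardiac jelly. Endocardial cells share junction proteins, receptors and SoxF factors with other endothelium, and Nfatc1 marks them within the early heart. At this stage blood has begun to flow, so the dissected heart can also carry primitive red cells. A bulk array cannot tell fewer endothelial cells from less RNA per cell.

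Values are log2 expression as deposited, and a difference is a log2 difference of group means, given ± its standard error (SE) with n = 3 arrays a group. Levels are given for each array in replicate order or as mean ± SD. A gene was called when its Benjamini-Hochberg adjusted p in the limma fit, taken over all 19938 genes, was under 0.05. Against WT, 3538 of these genes had an unadjusted p under 0.05 in limma in Nkx2-5 KO. There were 2978 in Tbx5 KO and 7285 in the double KO. The 3 comparisons with WT share the same 3 WT arrays. Array medians lay between 8.05 and 8.25, and 29 of the 35 members had a mean over the 12 arrays at or above the median of all genes, 8.36. Members with the lowest signals, such as Esam (12-array mean 7.69), leave less room for a measured fall. Genotype and sex-linked signal ran together: Xist was 11.5 to 12.3 on the 6 WT and Tbx5 KO arrays and 6.44 to 8.16 on the 6 Nkx2-5 KO and double KO arrays. Y-linked Eif2s3y split the arrays the same way (5.1 to 6.9 against 10.3 to 10.7), so the divide followed Nkx2-5 status. Any comparison of a group lacking Nkx2-5 with WT or Tbx5 KO is thus also one between low and high Xist. These arrays cannot separate embryo sex from loss of Nkx2-5 there. No member lies on the X or Y chromosome (0 of 35), but location alone does not show whether a gene's level differs with sex. The part of embryo sex in the results was not tested.

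The identity genes did not move as 1 block. In Nkx2-5 KO 3 of 35 were called (8.57%, against 4.43% of all genes): Sox17 and Stab1 rose and S1pr1 fell. In Tbx5 KO 3 of 35 were called (8.57%, against 2.31% of all genes): Sox17 rose, and Cd34 and S1pr1 fell. In the double KO 8 of 35 were called (22.9%), a share near the 23.4% of all genes called there: Sox17 rose, and Emcn, Cd34, Fli1, Nfatc1, Ramp2, S1pr1 and Clec14a fell. The median difference of the 35 genes was 0.12 without Nkx2-5, -0.01 without Tbx5 and 0.07 without both, beside 0.01, 0.01 and 0.06 over all genes. The lower and upper quartiles of the members were -0.07 and 0.29 in Nkx2-5 KO, -0.11 and 0.06 in Tbx5 KO, and -0.27 and 0.20 in the double KO. The Nkx2-5 KO count rested on single arrays: it became 0 when any 1 of WT replicates 1 and 3 or Nkx2-5 KO replicates 1 and 3 was left out, and 5 when WT replicate 2 was. The double KO count was 5 without double KO replicate 2.

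**Figure D1:**
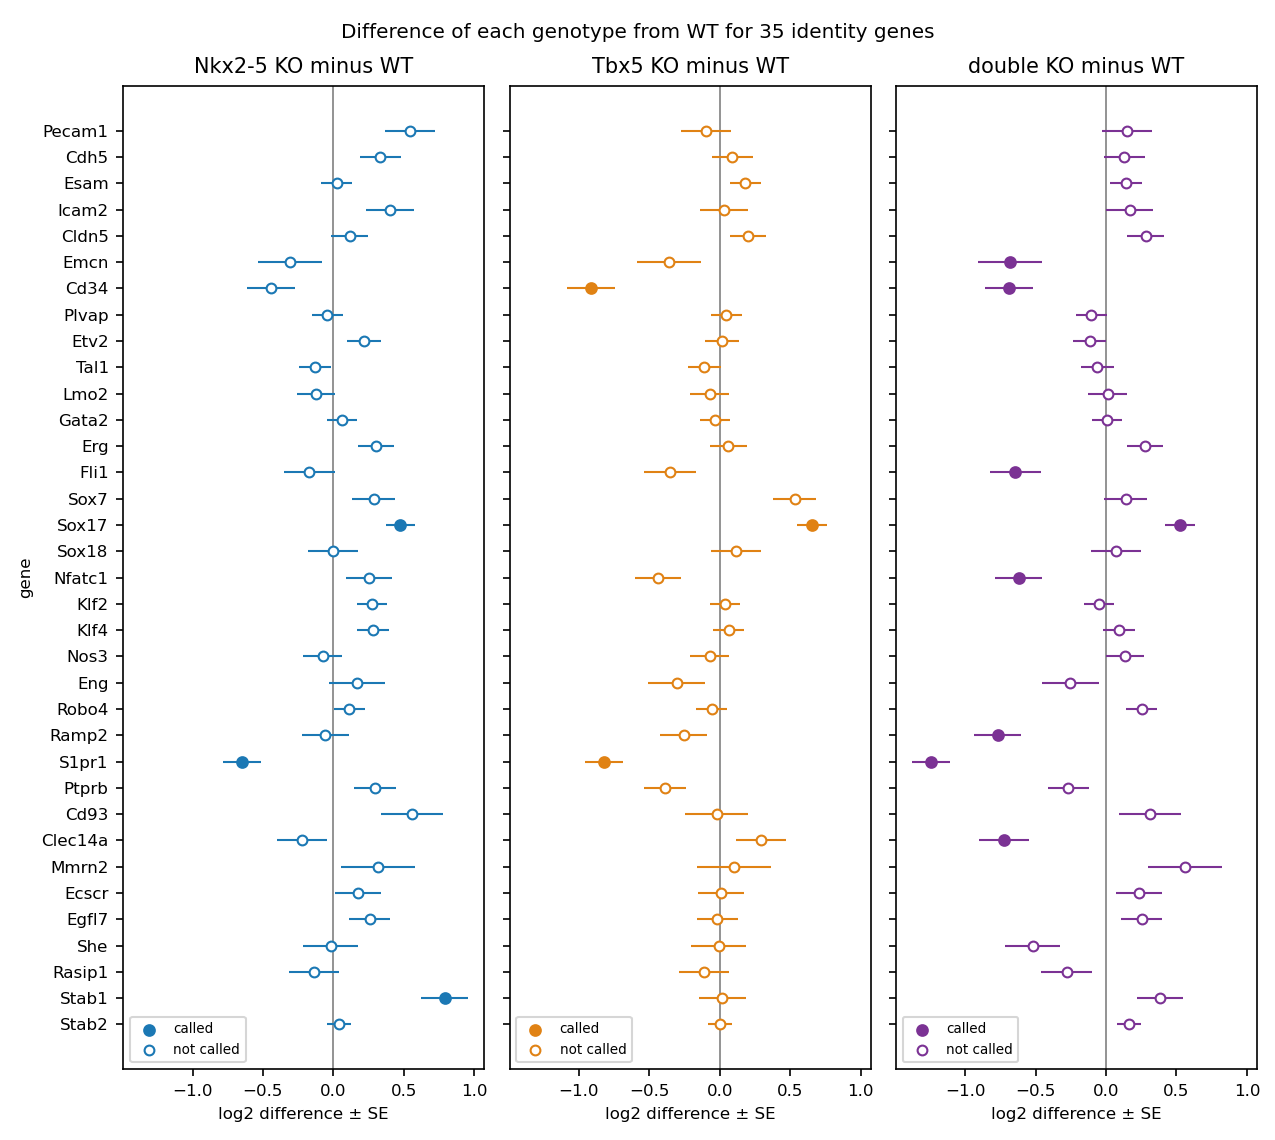
Log2 difference from WT (x axis) of each of the 35 genes (y axis, grouped by role) in each knockout, 1 panel a genotype; bars are the SE, and filled points are genes called at adjusted p under 0.05. Most points lie near 0; 3, 3 and 8 genes are filled, with S1pr1 to the left of 0 and Sox17 to the right in each panel.

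**Figure D2:**
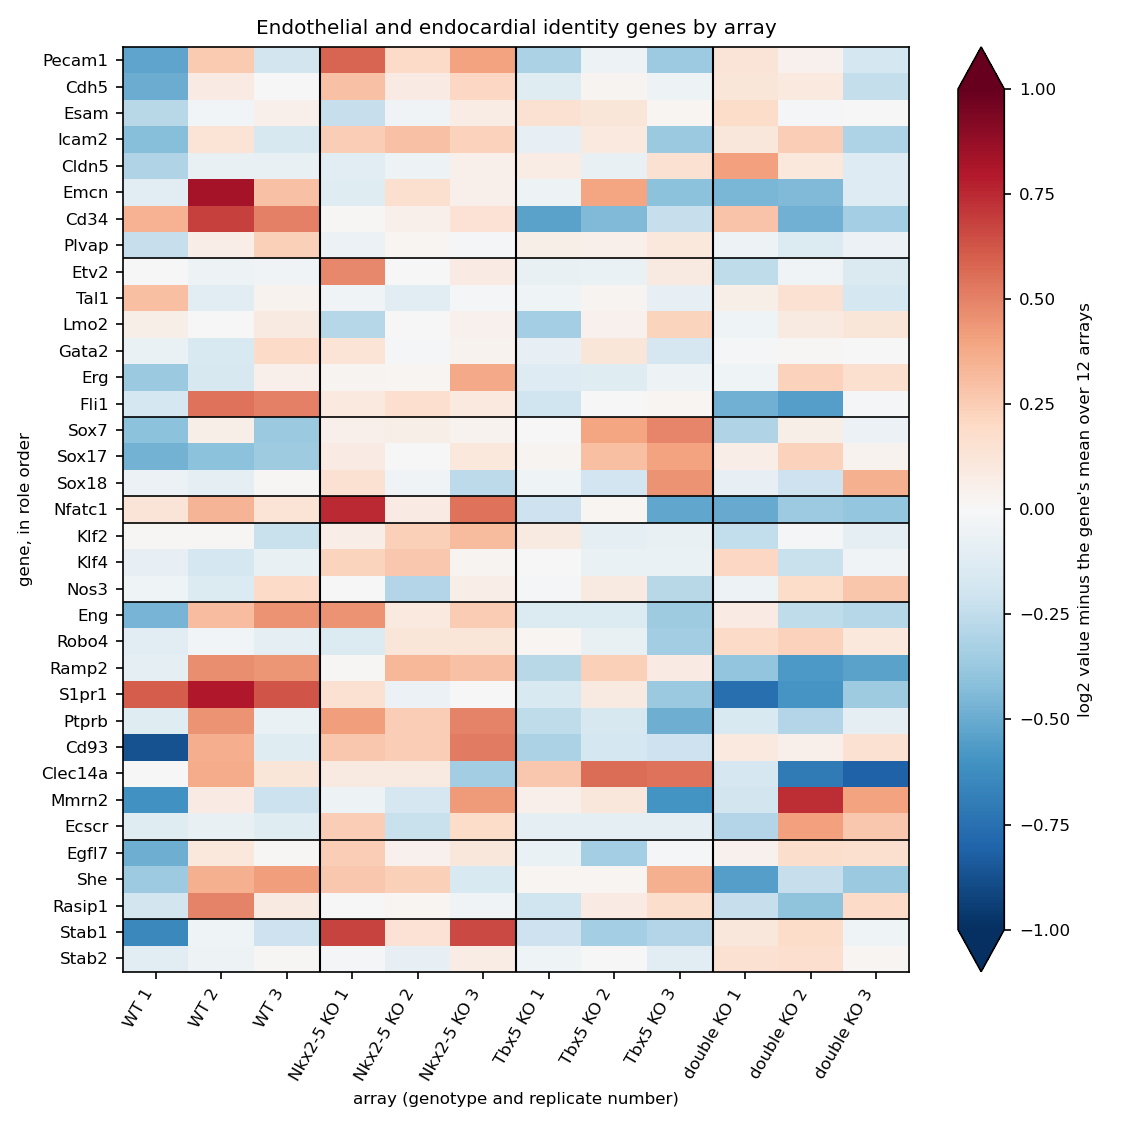
Log2 value of each gene on each of the 12 arrays minus that gene's mean over the arrays, with genotypes divided by vertical lines and roles by horizontal lines. S1pr1 is red in WT and blue in the double KO, Sox17 is blue in WT alone, and WT replicate 1 is blue for many genes that are red on WT replicate 2.

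Many members moved together among the WT replicates. WT replicate 1 gave the lowest of the 3 WT values for 26 of the 35 genes (74.3%), against 34.2% of all genes, and WT replicate 2 gave the highest for 20 (57.1%, against 33.7%). The median deviation of the members from their WT mean was -0.17 on WT replicate 1, 0.14 on WT replicate 2 and 0.04 on WT replicate 3. Cd93, a surface lectin of endothelium, read 9.74, 10.97 and 10.49 on the WT arrays, the widest spread of any member in WT (SD 0.62). Its difference in Nkx2-5 KO was 0.56 ± 0.22 (adjusted p = 0.199), and 0.0233 without WT replicate 2. The median SD of the members was 0.21 in WT, beside 0.13 over all genes, and 0.14, 0.16 and 0.16 in the knockouts of Nkx2-5, of Tbx5 and of both. The mean of the 35 log2 values was 8.94, 9.29 and 9.20 on the WT arrays, 9.28, 9.20 and 9.29 in Nkx2-5 KO, 9.04, 9.15 and 9.07 in Tbx5 KO, and 9.05, 9.08 and 9.07 in the double KO. All 3 Nkx2-5 KO arrays thus lay at or above the WT replicate 3 level, while WT replicates 1 and 2 bracketed every other array to within rounding. Markers of primitive red cells ran the other way among the WT arrays: the mean log2 value of the 10 measured was 11.1, 9.22 and 10.6. Their part in the spread of the members was not tested.

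**Figure D3:**
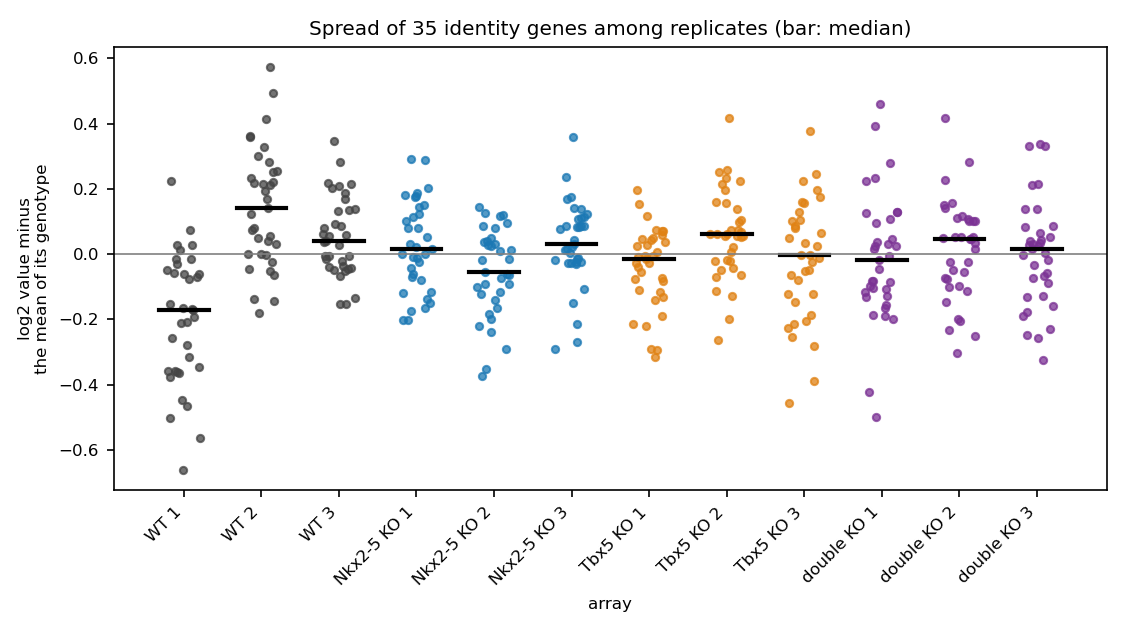
Deviation of each of the 35 genes (points) from the mean of its own genotype, in log2 units, on each array; black bars are medians over the genes and horizontal scatter has no meaning. The median is -0.17 on WT replicate 1 and 0.14 on WT replicate 2, and lies between -0.05 and 0.06 on the other arrays.

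Of the 8 junction and surface proteins, 0 were called in Nkx2-5 KO, where 4.43% of all genes were called. There 4 of the 8 had an unadjusted p under 0.05 in limma, beside 3538 of all 19938 genes. Without Tbx5, 1 of the 8 was called (against 2.31% of all genes). The double KO had 2 of the 8 called, a share near the 23.4% of all genes called there. Pecam1, the adhesion protein CD31, read 9.73, 10.52 and 10.07 in WT, 10.84, 10.45 and 10.66 in Nkx2-5 KO, 9.94, 10.21 and 9.89 in Tbx5 KO, and 10.39, 10.30 and 10.08 in the double KO. The Nkx2-5 KO arrays overlapped the highest WT array, and the difference was 0.54 ± 0.18 (adjusted p = 0.112). That difference was past the threshold with array weights (0.015) and without WT replicate 2 (0.0221), and its adjusted p was 0.376 without WT replicate 1. Cdh5, the junction protein VE-cadherin, read 10.50, 11.08 and 11.00 in WT, 11.29, 11.08 and 11.21 in Nkx2-5 KO, 10.88, 11.02 and 10.95 in Tbx5 KO, and 11.11, 11.09 and 10.76 in the double KO. Each KO group overlapped WT, while all Tbx5 KO arrays lay below all Nkx2-5 KO arrays. The difference in Nkx2-5 KO was 0.33 ± 0.15 (adjusted p = 0.256). Esam and Icam2, adhesion molecules of endothelial contacts, Cldn5, the tight junction claudin of endothelium, and Plvap, which forms the diaphragms of small endothelial pores, were not called in any of the 7 comparisons made.

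Cd34 and Emcn, a pair of mucin-like surface proteins, were the members of this group that were lower. Cd34 read 9.77, 10.10 and 9.93 in WT, 9.43, 9.47 and 9.57 in Nkx2-5 KO, 8.89, 8.98 and 9.19 in Tbx5 KO, and 9.70, 8.94 and 9.08 in the double KO. Every WT array lay above every KO array, and double KO replicate 1 stood closest to WT. Cd34 fell by 0.91 ± 0.17 in Tbx5 KO (1.88-fold, adjusted p = 0.0156) and by 0.69 ± 0.17 in the double KO (1.61-fold, adjusted p = 0.0109), and stood at -0.44 ± 0.17 in Nkx2-5 KO (adjusted p = 0.18). Leaving out WT replicate 3 or Tbx5 KO replicate 1 or 2 ended the Tbx5 KO call (adjusted p 0.0513 to 0.0641), and leaving out double KO replicate 2 ended the double KO call (0.0535). Emcn, the sialomucin endomucin, read 10.18, 11.12 and 10.58 in WT, 10.17, 10.44 and 10.34 in Nkx2-5 KO, 10.23, 10.68 and 9.87 in Tbx5 KO, and 9.83, 9.85 and 10.16 in the double KO. The double KO arrays lay below all WT arrays, though the highest of them nearly met WT replicate 1. Emcn was not called in Nkx2-5 KO (-0.31 ± 0.23, adjusted p = 0.5715) or Tbx5 KO (-0.36 ± 0.23, adjusted p = 0.5187). In the double KO it was lower by -0.68 ± 0.23 (adjusted p = 0.0479). That call was lost on leaving out any 1 of 8 arrays: WT replicates 2 and 3, all Nkx2-5 KO arrays, Tbx5 KO replicate 1, and double KO replicates 1 and 2 (adjusted p 0.0571 to 0.182). A second quantile normalization gave 0.117, and a fit on only the arrays compared 0.0688.

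Cd34 is also carried by early blood progenitors, and blood markers moved in the same hearts. Of the 10 primitive red cell genes measured, 0 were called in Nkx2-5 KO or Tbx5 KO (0 and 2 at unadjusted p under 0.05 in limma) and 4 were lower in the double KO, where 23.4% of all genes were called. Their summed level, on the log2 scale, ran from 14.42 to 15.62 in WT, 14.52 to 15.45 in Nkx2-5 KO, 14.77 to 14.82 in Tbx5 KO and 13.12 to 14.40 in the double KO. Of 5 megakaryocyte and platelet genes 0 were called in Nkx2-5 KO or Tbx5 KO (0 and 2 at unadjusted p under 0.05 in limma), and Pf4 was lower in the double KO. The difference of Pf4 from WT was -3.548 in the double KO and -3.185, not called, in Tbx5 KO. The summed level of the 5 genes ran from 10.67 to 11.43 in WT, 9.87 to 11.97 in Nkx2-5 KO, 9.80 to 10.17 in Tbx5 KO and 9.98 to 10.16 in the double KO. The part of blood cells in the Cd34 result was not tested.

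The RefSeq promoters of the called members with an entry in the promoter table used here are shown because these genes changed in the hearts without Nkx2-5, Tbx5 or both. Each runs from 250 bases before to 50 bases after the RefSeq start, 5′ to 3′ on the gene's strand, in build GRCm38.p6. Of the 35 members, 17 had an entry in that table, and S1pr1, Sox17, Nfatc1, Fli1, Ramp2 and Ptprb were not among them. Capitals mark matches on either strand to AGGTGT (a T-box core), TNAAGTG (an NK homeobox site) or AGGAAG and CCGGAA (cores bound by ETS factors). Cd34 is at chr1:194938571-194938870 (plus strand), Emcn at chr3:137340828-137341127 (plus strand), Clec14a at chr12:58269209-58269508 (minus strand) and Stab1 at chr14:31168592-31168891 (minus strand).
Cd34: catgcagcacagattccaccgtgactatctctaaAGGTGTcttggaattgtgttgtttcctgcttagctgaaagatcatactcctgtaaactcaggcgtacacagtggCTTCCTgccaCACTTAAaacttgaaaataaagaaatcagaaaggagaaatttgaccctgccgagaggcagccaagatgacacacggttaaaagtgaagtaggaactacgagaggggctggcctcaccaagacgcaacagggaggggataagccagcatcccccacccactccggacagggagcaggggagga
Emcn: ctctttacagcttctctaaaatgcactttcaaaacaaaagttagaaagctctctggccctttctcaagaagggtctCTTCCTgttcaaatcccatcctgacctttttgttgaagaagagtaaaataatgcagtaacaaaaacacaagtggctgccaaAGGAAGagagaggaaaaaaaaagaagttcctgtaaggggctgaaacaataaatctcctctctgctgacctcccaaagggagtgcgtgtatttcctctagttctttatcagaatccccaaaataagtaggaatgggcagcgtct
Clec14a: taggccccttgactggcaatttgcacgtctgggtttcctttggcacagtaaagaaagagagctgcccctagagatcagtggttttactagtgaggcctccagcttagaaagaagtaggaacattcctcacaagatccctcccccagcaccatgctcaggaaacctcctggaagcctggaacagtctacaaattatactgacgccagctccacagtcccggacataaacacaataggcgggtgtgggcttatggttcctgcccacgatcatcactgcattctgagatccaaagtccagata
Stab1: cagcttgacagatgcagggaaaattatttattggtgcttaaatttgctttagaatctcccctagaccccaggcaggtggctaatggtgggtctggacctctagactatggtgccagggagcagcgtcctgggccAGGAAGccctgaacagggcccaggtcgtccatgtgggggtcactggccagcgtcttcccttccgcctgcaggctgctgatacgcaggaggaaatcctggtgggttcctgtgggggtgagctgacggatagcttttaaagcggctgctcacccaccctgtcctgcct

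The Cd34 window held 1 match to the T-box core, 1 to the NK homeobox site and 1 to AGGAAG. Emcn held 2 matches to AGGAAG, Stab1 held 1, and Clec14a held none of these strings. Of 32851 promoter windows of the same 300 bases, 13.7% held AGGTGT, 11.5% TNAAGTG, 35.4% AGGAAG and 14.9% CCGGAA. Of the 17 members with a window, 2 held AGGTGT, 4 TNAAGTG, 10 AGGAAG and 0 CCGGAA. A match is a string in the sequence and says nothing on binding.

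Of the 6 early transcription factors of the blood and endothelial lineages, 0 were called in Nkx2-5 KO (1 at unadjusted p under 0.05 in limma), 0 in Tbx5 KO (0 at unadjusted p) and 1, Fli1, in the double KO. Over all genes 4.43%, 2.31% and 23.4% were called, so counts this low in a list of 6 do not set these factors apart. Etv2, the ETS factor that starts the endothelial programme and has been described as a target of Nkx2-5, read 8.25, 8.20 and 8.22 in WT, 8.73, 8.26 and 8.33 in Nkx2-5 KO, 8.18, 8.19 and 8.34 in Tbx5 KO, and 8.0, 8.22 and 8.10 in the double KO. Its values sat near the median of all genes on every array, with Nkx2-5 KO replicate 1 the highest, and the difference in Nkx2-5 KO was 0.22 ± 0.12 (adjusted p = 0.392). Fli1, an ETS factor kept on in mature endothelium and in blood, read 9.64, 10.36 and 10.32 in WT, 9.91, 9.98 and 9.91 in Nkx2-5 KO, 9.61, 9.82 and 9.83 in Tbx5 KO, and 9.33, 9.26 and 9.79 in the double KO. WT replicate 1 lay below double KO replicate 3, so those groups overlapped. Fli1 fell by 0.64 ± 0.18 in the double KO (adjusted p = 0.0225), which was lost on leaving out any 1 of WT replicates 2 and 3 and double KO replicates 1 and 2 (0.0738 to 0.0954), and in a fit on only the arrays compared (0.0766). Erg, the related ETS factor, Tal1 and Lmo2, partners in 1 complex, and Gata2 were not called in any of the 7 comparisons.

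Among the 3 SoxF factors, which act in endothelial and arterial specification, Sox17 alone was called. Sox17 read 7.76, 7.82 and 7.88 in WT, 8.31, 8.23 and 8.34 in Nkx2-5 KO, 8.26, 8.53 and 8.63 in Tbx5 KO, and 8.30, 8.46 and 8.27 in the double KO. All 9 KO arrays lay above all 3 WT arrays, and the 3 KO groups overlapped each other. Sox17 rose by 0.66 ± 0.11 in Tbx5 KO (1.58-fold, adjusted p = 0.0065), by 0.52 ± 0.11 in the double KO (1.44-fold, adjusted p = 0.0032) and by 0.48 ± 0.11 in Nkx2-5 KO (1.39-fold, adjusted p = 0.0248). The first 2 calls held under all 19 alternatives that tested Sox17. In Nkx2-5 KO, leaving out any 1 of replicates 1 and 3 of either group ended the call (0.0605 to 0.103), as did centring the arrays (0.0508). The non-additive term, the double KO change minus both single KO changes, was -0.61 ± 0.15 for Sox17 (adjusted p = 0.114). Sox7 was 0.53 ± 0.15 in Tbx5 KO (adjusted p = 0.096, and 0.0348 without WT replicate 2). Sox18 lay between 8.88 and 9.59 on all 12 arrays and was not called in any comparison.

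Sox17 is also a factor of endoderm, the tissue under the heart. Of 8 endoderm markers 1, Cdh1, rose without Nkx2-5 (against 4.43% of all genes called). There 4 of the 8 had an unadjusted p under 0.05 in limma, beside 3538 of all 19938 genes, and their median difference was 0.461. Tbx5 KO had 0 called and 0 at that unadjusted p, with a median of 0.013. Of the 8 markers, 2 rose in the double KO (against 23.4% of all genes called). At the unadjusted p there were 5 markers, beside 7285 of all genes, and the median of the 8 markers was 0.497. Their summed log2 level ran from 10.76 to 11.40 in WT, 11.11 to 12.11 in Nkx2-5 KO, 10.99 to 11.06 in Tbx5 KO and 11.29 to 11.61 in the double KO. The part of endoderm in the Sox17 result was not tested.

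Nfatc1, the endocardial transcription factor needed for valve formation, separated hearts with Tbx5 from hearts without it. It read 8.90, 9.11 and 8.91 in WT, 9.51, 8.85 and 9.31 in Nkx2-5 KO, 8.56, 8.79 and 8.26 in Tbx5 KO, and 8.27, 8.41 and 8.38 in the double KO. All 6 arrays without Tbx5 lay below all 6 with it, while WT and Nkx2-5 KO overlapped. Nfatc1 fell by 0.62 ± 0.17 in the double KO against WT (adjusted p = 0.0162), and by 0.87 ± 0.17 in the double KO against Nkx2-5 KO (1.83-fold, adjusted p = 0.00932). It was -0.44 ± 0.17 in Tbx5 KO against WT (adjusted p = 0.218) and 0.25 ± 0.17 in Nkx2-5 KO against WT (adjusted p = 0.494). Only the double KO against Nkx2-5 KO call held under all 20 alternatives run for it, among the Nfatc1 calls. The double KO against WT call ended without WT replicate 2 or double KO replicate 1 (0.0596 and 0.0521).

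The flow-responsive genes were not called. Of Klf2 and Klf4, transcription factors induced by shear stress, and Nos3, the endothelial nitric oxide synthase, 0 of 3 were called in any comparison, and in Nkx2-5 KO 2 of 3 had an unadjusted p under 0.05 in limma. Klf2 read 9.26, 9.27 and 9.03 in WT, 9.32, 9.49 and 9.57 in Nkx2-5 KO, 9.34, 9.16 and 9.18 in Tbx5 KO, and 9.01, 9.24 and 9.17 in the double KO. All 3 Nkx2-5 KO arrays lay above all WT arrays, by 0.28 ± 0.11 in the mean (adjusted p = 0.184).

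The receptors held the largest change. S1pr1, the receptor for sphingosine-1-phosphate, which steadies endothelial junctions and is also made in embryonic heart muscle, read 10.72, 10.91 and 10.74 in WT, 10.26, 10.05 and 10.11 in Nkx2-5 KO, 9.96, 10.20 and 9.74 in Tbx5 KO, and 9.36, 9.52 and 9.76 in the double KO. Every WT array lay above every KO array, and the double KO lay below Nkx2-5 KO on all arrays but met Tbx5 KO. S1pr1 fell by 1.24 ± 0.13 in the double KO (2.37-fold, adjusted p = 5.67e-05), by 0.82 ± 0.13 in Tbx5 KO (1.77-fold, adjusted p = 0.00689) and by 0.65 ± 0.13 in Nkx2-5 KO (1.57-fold, adjusted p = 0.0187). The double KO was lower than Nkx2-5 KO by -0.59 ± 0.13 (adjusted p = 0.0222) and stood at -0.42 ± 0.13 against Tbx5 KO (adjusted p = 0.0651). The calls against WT in the double KO and Tbx5 KO held under all 20 alternatives. Leaving out any 1 of replicates 1 and 3 of WT or Nkx2-5 KO ended the Nkx2-5 KO call (0.0532 to 0.0655). The call between double KO and Nkx2-5 KO was lost on leaving out Nkx2-5 KO replicate 1 or double KO replicate 1 or 2 (0.0708 to 0.0954), and after a second quantile normalization (0.0503).

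Ramp2, the membrane partner that turns Calcrl into a receptor for adrenomedullin, was low in the double KO. It read 9.53, 10.08 and 10.06 in WT, 9.63, 9.95 and 9.92 in Nkx2-5 KO, 9.35, 9.86 and 9.70 in Tbx5 KO, and 9.23, 9.05 and 9.09 in the double KO. All 3 double KO arrays lay below the other 9. A further probe set that names Ramp2 together with another gene was not used. That probe set read 13.78, 13.70 and 13.64 in WT and 13.80, 13.87 and 13.86 in the double KO, with no fall. Its mean over the 12 arrays was 13.74, beside 9.62 for the probe set used. The fall was thus seen only on the probe set with the Ramp2 symbol alone. Why these probe sets differ was not tested. Ramp2 fell by 0.77 ± 0.17 against WT (1.71-fold, adjusted p = 0.00493), a call that held under all 20 alternatives, and by 0.71 ± 0.17 against Nkx2-5 KO (adjusted p = 0.0268). The latter ended without Nkx2-5 KO replicate 2 or 3 or double KO replicate 2 or 3 (0.0537 to 0.102). Against Tbx5 KO the adjusted p was 0.0683, and 0.0331 to 0.198 over the alternatives.

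Clec14a, a lectin-like receptor of endothelium that binds Mmrn2, differed between the double KO and Tbx5 KO. It read 8.27, 8.66 and 8.41 in WT, 8.37, 8.37 and 7.94 in Nkx2-5 KO, 8.55, 8.84 and 8.82 in Tbx5 KO, and 8.11, 7.57 and 7.47 in the double KO. The double KO arrays were the lowest apart from Nkx2-5 KO replicate 3, which lay below double KO replicate 1, and Tbx5 KO had the highest mean, with WT replicate 2 above 1 of its arrays. Clec14a fell by 0.73 ± 0.18 against WT (1.65-fold, adjusted p = 0.0104) and was lower by -1.02 ± 0.18 than in Tbx5 KO (2.03-fold, adjusted p = 0.00296). Both calls held under all 19 alternatives that tested it. Its change in Tbx5 KO was 0.29 ± 0.18 (adjusted p = 0.499) and its non-additive term -0.80 ± 0.25 (adjusted p = 0.265).

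Ptprb, the phosphatase VE-PTP that acts on VE-cadherin and the receptor Tek, was lower in Tbx5 KO and the double KO than in Nkx2-5 KO. It read 9.03, 9.60 and 9.09 in WT, 9.57, 9.40 and 9.65 in Nkx2-5 KO, 8.90, 8.99 and 8.66 in Tbx5 KO, and 9.00, 8.86 and 9.06 in the double KO. WT replicate 2 read with Nkx2-5 KO and the other WT arrays with the groups lacking Tbx5, and no comparison with WT was called. Ptprb was lower by -0.69 ± 0.15 in Tbx5 KO than in Nkx2-5 KO (adjusted p = 0.0278) and by -0.56 ± 0.15 in the double KO than in Nkx2-5 KO (adjusted p = 0.0439). The former ended without Nkx2-5 KO replicate 1 or 3 or Tbx5 KO replicate 1 or 3 (0.0813 to 0.113). The latter ended without WT replicate 3, any 1 Nkx2-5 KO or double KO array, or Tbx5 KO replicate 1 or 2 (0.0506 to 0.154). The other receptors and partners, Eng, a co-receptor of the TGF-beta family, Robo4, Cd93, Mmrn2 and Ecscr, were not called in any comparison.

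**Figure D4:**
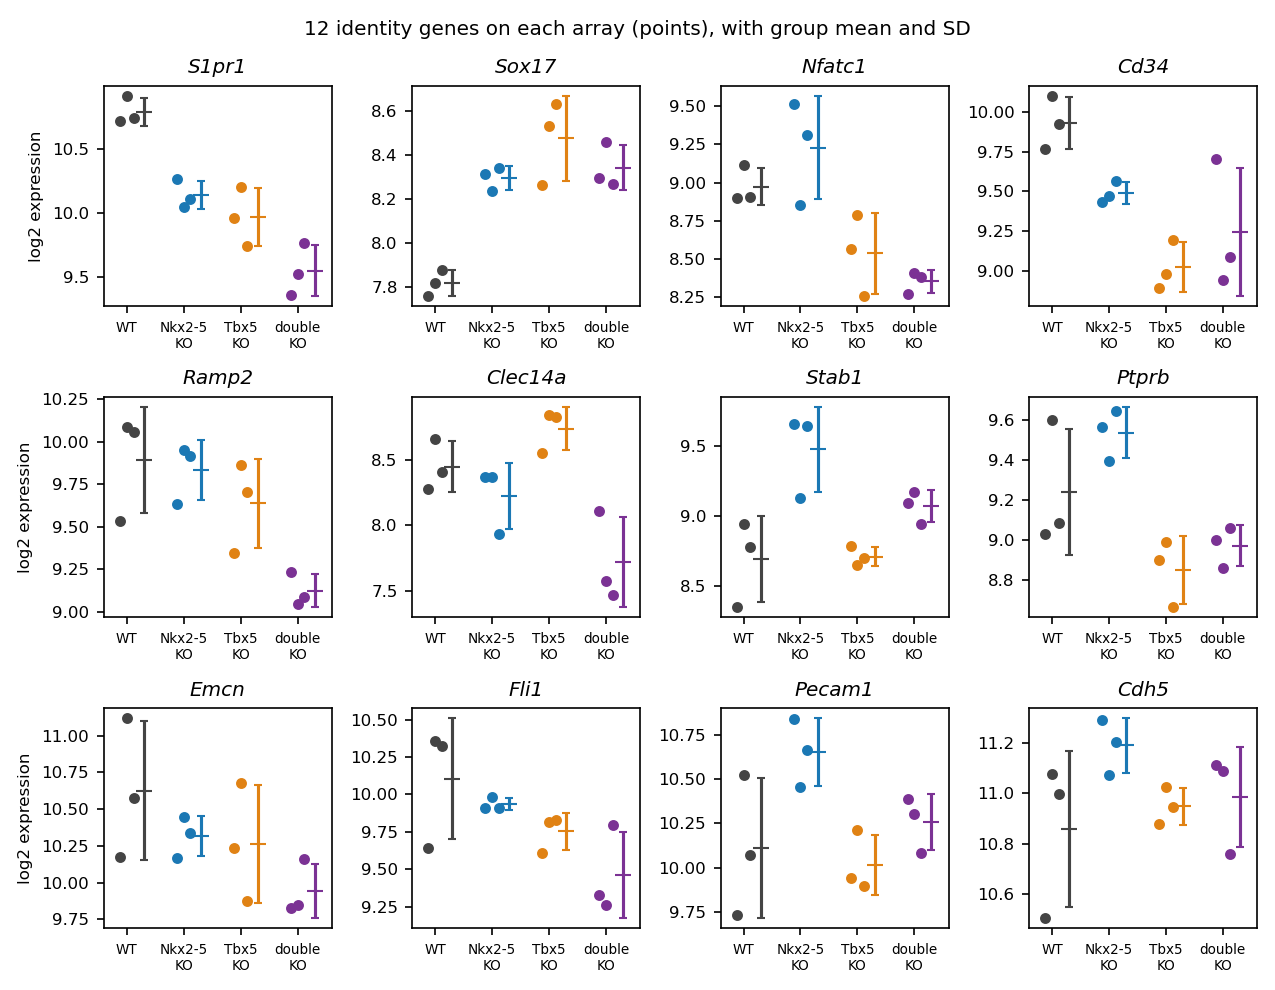
Log2 expression of 12 identity genes (y axes differ between panels and do not start at 0) on each of the 3 arrays of the 4 genotypes, with group mean and SD beside the points. S1pr1 steps down from WT to the double KO, all KO arrays of Sox17 lie above WT, and Nfatc1 is lowest in the groups without Tbx5.

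Of the scavenger receptors, Stab1 was called and Stab2 was not. Stab1 read 8.34, 8.94 and 8.78 in WT, 9.66, 9.13 and 9.65 in Nkx2-5 KO, 8.78, 8.65 and 8.70 in Tbx5 KO, and 9.10, 9.17 and 8.94 in the double KO. All Nkx2-5 KO arrays lay above all WT and Tbx5 KO arrays. Stab1 rose by 0.79 ± 0.17 in Nkx2-5 KO against WT (1.73-fold, adjusted p = 0.0205), and Tbx5 KO was lower than Nkx2-5 KO by -0.77 ± 0.17 (adjusted p = 0.0277). The first was lost on leaving out any 1 of replicates 1 and 3 of either group (0.0528 to 0.0979) and in a fit on only the arrays compared (0.0608). The second was lost on leaving out Nkx2-5 KO replicate 1 or 3 or any 1 Tbx5 KO array (0.0756 to 0.138). Stab1 is also made by macrophages, and of 8 white cell markers 0 rose and 1, Lyz2, fell in Nkx2-5 KO (-1.02). Lyz2 also fell in Tbx5 KO (-1.07) and in the double KO (-0.93), where Cd68 rose (0.72). No other white cell marker was called against WT. Over all genes 4.43%, 2.31% and 23.4% were called in Nkx2-5 KO, Tbx5 KO and the double KO. The summed log2 level of the 8 markers was 10.60 to 10.88 in WT, 10.44 to 10.84 in Nkx2-5 KO, 10.57 to 10.86 in Tbx5 KO and 10.81 to 10.96 in the double KO. The part of white cells in the Stab1 result was not tested. Egfl7, a secreted protein of endothelium, She, an adaptor, and Rasip1, which acts in vessel lumen formation, were not called.

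Between KO groups, all members called were lower in the group named first. Of 35 members 3 were lower in Tbx5 KO than in Nkx2-5 KO (against 1.37% of all genes called lower and 2.39% called either way): Nfatc1, Ptprb and Stab1. Nfatc1 was -0.69 ± 0.17 there (adjusted p = 0.0483), and the call ended without any 1 array except Nkx2-5 KO replicate 2 and Tbx5 KO replicate 2 (0.0569 to 0.211) and with only the arrays compared (0.125). The count was 0 without Nkx2-5 KO replicate 1 or 3 or Tbx5 KO replicate 1 or 3. In the double KO against Nkx2-5 KO 4 of 35 were lower (against 4.55% of all genes called lower and 5.56% called either way): Nfatc1, Ptprb, Ramp2 and S1pr1. That count was 2 without any 1 Nkx2-5 KO array or double KO replicate 3 and 1 without double KO replicate 2. In the double KO against Tbx5 KO 1 of 35 was lower, Clec14a (against 7.86% of all genes called lower and 10.7% called either way), and the count was 3 without WT replicate 1 and 2 without Tbx5 KO replicate 1 or 3 or double KO replicate 3. The non-additive term was called for 0 of 35 (against 0.547% of all genes). For that term 5 members had an unadjusted p under 0.05 in limma, beside 1772 of all 19938 genes.

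A list of 34 other vascular genes, of receptors, Notch components and endothelial enzymes, was set beside the members. In Nkx2-5 KO 2 fell and 0 rose (5.88% called, against 4.43% of all genes). In Tbx5 KO 1 fell and 0 rose (2.94%, against 2.31%). In the double KO 4 rose and 5 fell (26.5%, against 23.4%). These shares were near those of all genes. Npr3, a natriuretic peptide receptor of the endocardium, read 10.81, 11.52 and 11.19 in WT and 9.89, 9.91 and 10.02 in the double KO, and fell by 1.24 ± 0.19 (adjusted p = 0.000516). Tek, the angiopoietin receptor, fell by 1.19 ± 0.23 (adjusted p = 0.00236) and Thbd, the anticoagulant receptor thrombomodulin, by 0.85 ± 0.12 (adjusted p = 0.000264). Flt1, a VEGF receptor, rose by 1.09 ± 0.22 (adjusted p = 0.00333). Those 4 calls held under all 20 alternatives. Thbd also fell in Tbx5 KO (-0.75 ± 0.12, adjusted p = 0.00553) and in Nkx2-5 KO (-0.50 ± 0.12, adjusted p = 0.0292), and Nrp1, a co-receptor for VEGF, in Nkx2-5 KO (-0.40 ± 0.10, adjusted p = 0.0493). Both Nkx2-5 KO calls ended without any of several single arrays, 5 for Thbd (0.0605 to 0.114) and 12 for Nrp1 (0.0511 to 0.13). The Nkx2-5 KO count was 0 on leaving out any 1 of replicates 1 and 3 of either group and 4 on leaving out WT replicate 2. Those 4 included neither Thbd (adjusted p 0.0746) nor Nrp1 (0.104). The Nkx2-5 KO count was 1 without Tbx5 KO replicate 1 or 3 or double KO replicate 1 or 2. In Tbx5 KO the count was 2 without WT replicate 1.

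Markers of further cell types were read on the same arrays. Over all genes 4.43%, 2.31% and 23.4% were called in Nkx2-5 KO, Tbx5 KO and the double KO. Of 8 endothelial and endocardial markers, 5 of them members, 0 were called in Nkx2-5 KO or Tbx5 KO (3 and 2 at unadjusted p under 0.05 in limma), and Emcn, Nfatc1 and Tek fell in the double KO. The other 5, Pecam1, Cdh5, Esam, Kdr and Tie1, had differences above 0 in the double KO and were not called. The median difference of the 8 markers there was 0.135. The summed log2 level of the 8 was 12.65 to 13.44 in WT, 13.14 to 13.43 in Nkx2-5 KO, 12.82 to 13.02 in Tbx5 KO and 12.82 to 12.96 in the double KO. Heart muscle markers summed to between 16.51 and 16.66 on all 12 arrays, with 3 of 8 higher and 1 lower in the double KO. Of 8 mesenchyme, mural and epicardial markers 1 fell in Tbx5 KO and 4 in the double KO, with summed levels of 12.84 to 13.03 in WT, 12.85 to 12.87 in Nkx2-5 KO, 12.05 to 12.35 in Tbx5 KO and 12.25 to 12.49 in the double KO. Of 8 trophoblast and decidua genes listed, 5 were measured, and Prl3d3, Prl8a2 and Hand1 rose in Tbx5 KO. Hand1 already had a mean of 9.35 in WT hearts, beside 5.57 for Prl3d3 and 6.71 for Prl8a2. Tpbpa and Ctsq were not called there, with Tbx5 KO means of 5.60 and 5.00 beside 5.48 and 5.28 in WT. Summed levels were 11.57 to 11.95 in Tbx5 KO, 9.54 to 9.95 in WT, 9.40 to 9.64 in Nkx2-5 KO and 9.58 to 9.74 in the double KO. The part of these other cells in the changes of S1pr1, Sox17 and Cd34 in Tbx5 KO was not tested.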

How the data were processed

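RNA from dissected hearts was hybridised to Affymetrix arrays. Values are the log2 expression values per probe set that the authors deposited, from 3.21 to 14.7; their summarisation and normalization are not given in the sources used here. Groups and replicate numbers came from the sample titles. Of 35557 probe sets, 21789 carried exactly 1 symbol in the platform annotation, 1621 several and 12147 none listed. The probe set with the highest mean was kept for each of 19938 genes, with no filter. Each member had 1 such probe set, and all 35 symbols matched RefSeq by Entrez number.

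limma 3.58.1 in R 4.3.3 (lmFit, eBayes) fitted the 4 group means to the 12 arrays together, with residual degrees of freedom of 8 and a prior of 4.51. Two-sided p-values were adjusted by Benjamini and Hochberg within each of 7 comparisons: 6 pairs of groups and the non-additive term. The script was tested on simulated data. Summed marker levels are log2 of the sum of linear values. Tables used Python 3.11.15 and pandas 2.3.3.

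The members, lists and motifs were chosen with earlier results of these data known. Arrays are given in full for called members and for Pecam1, Cdh5, Nfatc1, Emcn, Klf2, Etv2 and Sox17. Of the other lists, up to 4 called genes a comparison were named by size. Alternatives were quantile normalization again, arrays centred on their median, an intensity trend, array weights, only the arrays compared, a replicate block, only genes at or above the median mean, the mean of all probe sets, and leaving out each array.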

Additional observations from a re-analysis of the deposited data

How the results depend on the processing

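Of the 22 calls of members over the comparisons, 8 held under every alternative that tested them, 14 ended under at least 1, and 0 changed direction. With a replicate block the count of members lower in Tbx5 KO than in Nkx2-5 KO was 0 in place of 3 (adjusted p 0.0559 for Ptprb, 0.0607 for Stab1 and 0.0911 for Nfatc1), and Ptprb was no longer called in the double KO against Nkx2-5 KO (0.0744). In the double KO against Tbx5 KO the count of 1 became 2 with a replicate block, 2 with array weights, 3 with centred arrays and 2 among genes at or above the median mean. The replicate numbers were not shown to pair the arrays: same-numbered arrays of different groups had deviations that correlated between -0.27 and 0.21 over genes, 3 of 18 pairs exceeding 0.1, and 0 of 12 arrays matched their own number best in all other groups. Leaving out 1 array at a time gave 0 to 5 members in Nkx2-5 KO, 2 to 4 in Tbx5 KO and 5 to 10 in the double KO against WT, 0 to 4 in Tbx5 KO against Nkx2-5 KO, 1 to 4 in the double KO against Nkx2-5 KO, 1 to 3 against Tbx5 KO, and 0 for the non-additive term. Centring moved the median of all genes in the double KO from 0.06 to -0.06. Over all genes, array weights raised the counts called from 884 to 2132 in Nkx2-5 KO, 461 to 933 in Tbx5 KO, 476 to 1424 between the single knockouts, 1109 to 2481 between the double KO and Nkx2-5 KO, and 109 to 343 for the non-additive term. A fit on only the arrays compared gave 570 between the double KO and Nkx2-5 KO, and the block 61 for the non-additive term. The Nkx2-5 KO count over all genes also dropped when an array that ended the member calls was left out, to between 169 and 346. Where leaving out 1 array moved another count over all genes by more than 1.5 times, it became 212 to 294 in Tbx5 KO, 254 to 282 between the single knockouts, 521 to 558 between the double KO and Nkx2-5 KO, 1300 to 1371 between the double KO and Tbx5 KO (from 2139), and 48 to 264 for the non-additive term. The filter left out Clec14a, Sox17 and other dim members, and each member has 1 probe set with its symbol alone, so the mean of such probe sets changed only their adjusted p. With only 3 arrays a group, small differences can be missed.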
